A study of Mus musculus with 2 samples.

Results

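The genes described here encode the subunits of the mitochondrial respiratory chain and ATP synthase that are transcribed in the nucleus. They were chosen by symbol: every gene named Ndufa, Ndufb, Ndufc, Ndufs or Ndufv with a number, Uqcr, Cox4 to Cox8 with an a, b or c, or Atp5, with a protein-coding transcript in the annotation. The rule found 79 of 55536 annotated genes, under 78 symbols, because Atp5o has 2 entries in the annotation. By known membership 77 of them were placed in complexes: 35 in complex I, 8 in complex III, 18 in complex IV and 16 in complex V. Ndufa4 and its paralog Ndufa4l2 were put in complex IV, where the Ndufa4 protein is a subunit, despite their complex I names. Atp5s, which is not known as a subunit of the enzyme, and the other annotated copy of Atp5o were kept apart. The symbol rule misses some nuclear-encoded subunits, among them Ndufab1, Cyc1, Cox4i1 and Usmg5. They enter no median or rank of a complex here.

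The RNA came from macrophages grown from the bone marrow of C57BL/6J mice and exposed to lipid A, the membrane anchor of bacterial endotoxin and a ligand of Toll-like receptor 4, at 100 ng/ml for 75 minutes. The cytosolic fraction was isolated, ribosomal RNA was depleted, and total RNA was sequenced in 2 libraries, called replicate 1 and replicate 2 by the labels. No unstimulated sample, other time or whole-cell sample was analysed here, so the values describe stimulated macrophage cytosol and carry no test between conditions. Both libraries carry 1 donor identifier in the labels, which leave unsaid if animals or cultures were separate, so each SD (n = 2) may be partly technical. Age and sex are not given.

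The respiratory chain passes electrons from NADH and succinate through complexes I and II to ubiquinone, then through complex III and cytochrome c to complex IV, which reduces oxygen. The protons pumped on the way drive complex V, the ATP synthase. Complexes I, III, IV and V are each built from 1 or more proteins encoded by mitochondrial DNA and many encoded in the nucleus, whose mRNAs are translated in the cytosol and whose products are imported. In macrophages, activation through Toll-like receptor 4 is known to shift energy supply from respiration to glycolysis, and complexes I and III are known sources of reactive oxygen.

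Totals over annotated genes were 55596625 and 50157146 expected counts in replicates 1 and 2. All 10 macrophage markers were at 1 TPM or more (TPM, a read count corrected for transcript length and depth), with summed levels of 6745 and 7141 TPM in replicates 1 and 2, and none of the 5 T cell or 5 erythroid markers was. Of the other lists, 3 of 7 neutrophil, 1 of 4 B cell, 0 of 4 stromal and 1 of 3 endothelial markers reached 1 TPM. The libraries stood apart in RNA that normally stays in the nucleus: 3 of 3 such RNAs were higher in replicate 2, with summed levels of 174 TPM in replicate 1 and 869 TPM in replicate 2.

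Nearly the whole nuclear-encoded chain was present in the cytosolic RNA. At a mean of 1 TPM or more stood 72 of the 79 genes, against 39.3% of the 22015 nuclear-encoded protein-coding genes, and 67 reached 10 TPM, against 13.9%. All 35 complex I, all 8 complex III and all 16 complex V genes reached 1 TPM, but 12 of 18 complex IV genes did. The median member had 28.1 ± 3.75 TPM (SD, n = 2), and the median nuclear-encoded protein-coding gene among those at 1 TPM or more had 6.10 ± 0.117 TPM (SD, n = 2). Rescaled to TPM among the nuclear-encoded protein-coding genes only, the members' median was 130 ± 18.4 (SD, n = 2). The members together held 0.285% ± 0.0274 (SD, n = 2) of all counts.

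**Figure D1:**
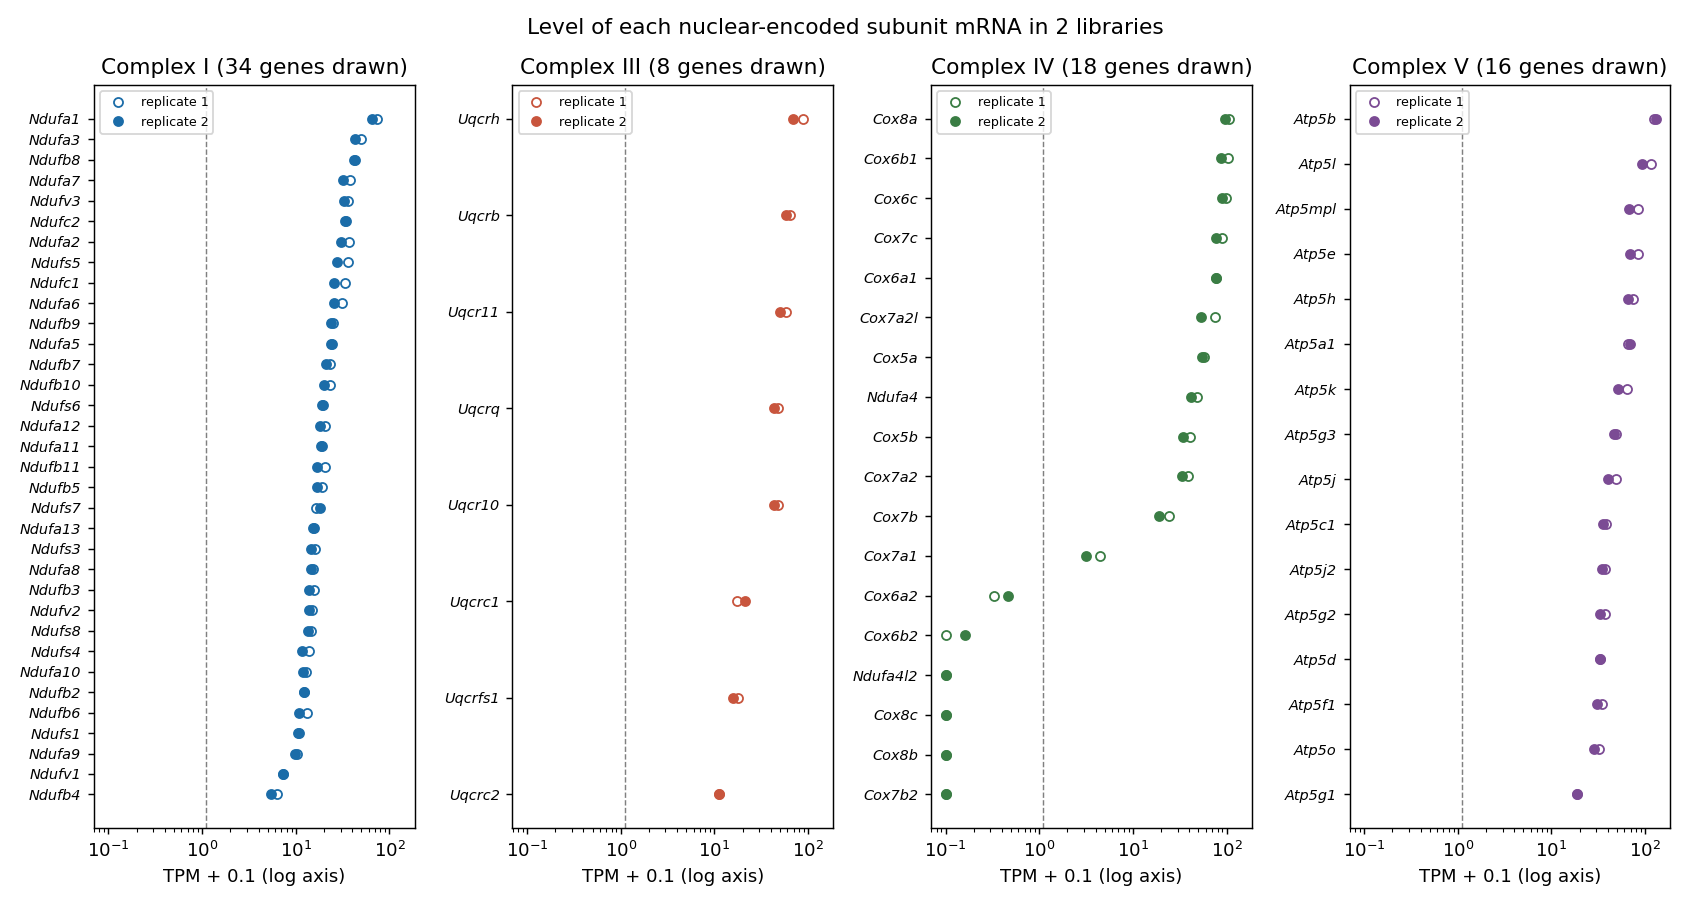
Level of each gene in TPM plus 0.1 on a log axis, 1 panel per complex, with open circles for replicate 1, filled circles for replicate 2 and a dashed line at the 1 TPM threshold; 1 gene is not drawn. All genes drawn of complexes I, III and V lie to the right of the line, whereas 6 of 18 complex IV genes lie to its left.

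The complexes were not at one level. Complex I was lowest, with a median over its genes of 19.0 TPM in replicate 1 and 18.1 TPM in replicate 2. Complex III had medians of 47.7 and 43.1 TPM, complex V of 48.7 and 42.7 TPM, and complex IV of 39.8 and 33.6 TPM in replicates 1 and 2. In both libraries the medians of complexes III, IV and V exceeded that of complex I.

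As log2(TPM + 0.1), the median of complex III minus that of complex I was 1.32 in replicate 1 and 1.25 in replicate 2, a mean of 1.29 ± 0.055 (SD, n = 2) or 2.44-fold. Complex V minus complex I gave 1.35 and 1.23, a mean of 1.29 ± 0.087 (SD, n = 2). Complexes III and V did not differ from each other beyond the spread between libraries, with a difference of 0.0055 ± 0.032 (SD, n = 2). Each of the differences from complex I was larger than its spread over the libraries, but no test was run on 2 libraries, and genes of a complex are not replicates of it.

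The place of complex IV depended on which of its genes were counted. Over all 18 genes its median lay 0.975 ± 0.12 (SD, n = 2) above that of complex I, and over the 12 genes at 1 TPM or more it lay 1.68 ± 0.15 (SD, n = 2) above. Against complex III the sign turned, from -0.31 ± 0.067 over all genes to 0.395 ± 0.097 (SD, n = 2) over those at 1 TPM or more. With the mean of log2 levels in place of the median, complex IV lay below complex I, at -1.57 ± 0.026 (SD, n = 2). In that mean, its 4 genes at 0 counts in both libraries enter at the pseudocount. Cox6b2, at 0 and 0.06 TPM, and Cox6a2, at 0.23 and 0.36 TPM, enter at or near it. The change from median to mean gave complex III minus complex I as 0.825 ± 0.013 (SD, n = 2).

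**Figure D2:**
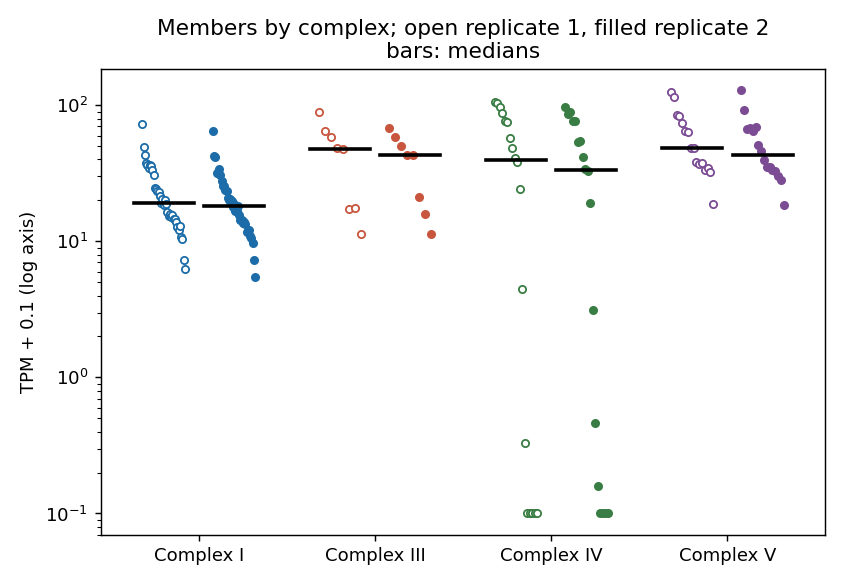
Levels of the genes of each complex in TPM plus 0.1 on a log axis, open for replicate 1 and filled for replicate 2, with bars at the medians. Complex I has the lowest bar in both libraries (19.0 and 18.1 TPM), and complex IV splits into a group of high genes and a tail near 0.

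Within complex I, the 7 core subunits, which hold the flavin and the iron-sulfur clusters of the electron path, had a median of 14.2 ± 0.636 TPM, and the 28 accessory subunits had 20.8 ± 1.44 TPM (SD, n = 2). On the log2 scale the accessory median was 0.569 higher in replicate 1 and 0.521 higher in replicate 2. Ndufa1, a small accessory subunit of the membrane arm, was the highest complex I gene at 72.7 TPM in replicate 1 and 64.9 TPM in replicate 2. It was the only complex I gene above 50 TPM.

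Ndufa3, another small accessory subunit, followed at 49.1 TPM in replicate 1 and 42.4 TPM in replicate 2. Ndufb8, of the membrane arm, was at 43.2 TPM in replicate 1 and 41.6 TPM in replicate 2. Ndufa7 completed the top 4 by mean, at 37.5 TPM in replicate 1 and 31.8 TPM in replicate 2. In replicate 2, Ndufc2 at 33.7 TPM and Ndufv3 at 32.4 TPM were above it. The top 4 all stood above every core gene in both libraries.

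Among the core genes, Ndufs7, the subunit with the last iron-sulfur cluster before ubiquinone, was at 16.4 TPM in replicate 1 and 18.1 TPM in replicate 2. Ndufs1, the largest core subunit, was at 10.7 TPM in replicate 1 and 10.5 TPM in replicate 2. Of the other core genes, Ndufs3, Ndufv2 and Ndufs8 had means of 15.1, 14.2 and 13.9 TPM.

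At the low end stood Ndufv1, the subunit that binds flavin and NADH, at 7.18 TPM in replicate 1 and 7.26 TPM in replicate 2. Ndufa9, an accessory subunit beside the ubiquinone channel, was at 10.3 TPM in replicate 1 and 9.62 TPM in replicate 2. The lowest was Ndufb4, at 6.18 TPM in replicate 1 and 5.37 TPM in replicate 2, on 538 and 378 counts. The other accessory genes had means between 11.9 TPM, for Ndufb6, and 34.4 TPM, for Ndufv3. Across the 35 genes, the highest mean was 11.9-fold the lowest, and no library changed which gene was at either end. The low end and this range rest on how reads were divided between Ndufb4 and an identical copy described further on. Both libraries share that division, so their agreement does not test it.

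Complex III showed a sharp division between its small subunits and the rest. Its 5 small subunits had a median of 54.3 ± 5.54 TPM, and its 2 core proteins one of 15.2 ± 1.34 TPM (SD, n = 2). Uqcrh, the acidic hinge protein that contacts cytochrome c1, was highest at 88.5 TPM in replicate 1 and 68.3 TPM in replicate 2. Uqcrb was at 64.7 TPM in replicate 1 and 58.5 TPM in replicate 2.

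Uqcr11 was at 58.2 TPM in replicate 1 and 50.4 TPM in replicate 2. Uqcrq, at 48.1 TPM in replicate 1 and 43.3 TPM in replicate 2, and Uqcr10, with a mean of 45.1 TPM, closed the small group and differed from each other by less than the spread between libraries. None of the other 3 genes came near them in either library.

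Uqcrc1, a core protein facing the matrix, was at 17.3 TPM in replicate 1 and 21.1 TPM in replicate 2. The Rieske iron-sulfur protein Uqcrfs1, which hands electrons to cytochrome c1, was at 17.6 TPM in replicate 1 and 15.7 TPM in replicate 2. Uqcrc2, the partner of Uqcrc1, was the lowest member of the complex at 11.2 TPM in replicate 1 and 11.2 TPM in replicate 2. Uqcrc1 was the only complex III member higher in replicate 2.

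In complex IV, the general forms and the tissue-restricted forms of the subunits were at opposite ends. The 10 general forms had a median of 66.3 ± 1.15 TPM (SD, n = 2), and 6 of the 7 restricted forms were below 1 TPM. Cox8a, the general form of one of the smallest subunits, was the highest complex IV member at 105.9 TPM in replicate 1 and 96.9 TPM in replicate 2. Cox6b1, which faces the intermembrane space, was at 103.5 TPM in replicate 1 and 86.0 TPM in replicate 2.

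Cox6c was at 97.4 TPM in replicate 1 and 88.6 TPM in replicate 2. Cox7c was at 88.2 TPM in replicate 1 and 76.5 TPM in replicate 2, with a caveat on shared sequence given further on. Cox6a1 was at 77.1 TPM in replicate 1 and 77.0 TPM in replicate 2 and differed least between libraries among these genes. All 5 of these general forms were above 70 TPM in both libraries.

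The other general forms were spread lower. Cox5a, whose protein faces the matrix, was at 57.1 TPM in replicate 1 and 54.5 TPM in replicate 2. Cox5b, which binds zinc, was at 41.0 TPM in replicate 1 and 34.2 TPM in replicate 2. Ndufa4 was at 48.3 TPM in replicate 1 and 41.8 TPM in replicate 2, while its paralog had no counts.

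The lowest general form was Cox7b at 24.3 TPM in replicate 1 and 18.9 TPM in replicate 2. Cox7a2, the general form of the 7a subunit, was at 38.6 TPM in replicate 1 and 33.0 TPM in replicate 2. Cox7a2l, known as a factor of supercomplexes, which were not measured here, was higher, at 75.9 TPM in replicate 1 and 53.7 TPM in replicate 2. Its libraries were farther apart than those of any other complex IV gene at 10 TPM or more.

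Of the restricted forms, Cox7a1, the heart and muscle form, was the only one above 1 TPM, at 4.39 TPM in replicate 1 and 3.03 TPM in replicate 2, on 90 and 52 counts. It made up 3.53% ± 0.225 (SD, n = 2) of the summed TPM of the 7a family, beside 61.8% for Cox7a2l and 34.6% for Cox7a2. Cox6a2, the muscle form of 6a, was at 0.23 and 0.36 TPM, on 12 and 16 counts, 0.381% ± 0.119 (SD, n = 2) of its family, with Cox6a1 at 99.6%. Neither form reached 100 counts in a library.

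Cox6b2, a testis form, had 0 counts in replicate 1 and 1 count in replicate 2. Cox7b2 and Cox8c, also testis forms, Cox8b, the heart and muscle form of subunit 8, and Ndufa4l2, known to be induced under low oxygen, were at 0 counts in each library. For such a gene the limit used is 3 counts per library, for counting error only, so these 4 genes were not detectable at this depth. No cardiac or skeletal muscle marker (0 of 7) and no testis germ cell marker (0 of 5) reached 1 TPM, and the summed muscle markers were at 0.02 and 0.07 TPM, with Myh6, Myh7, Ckm and Mb at 0 counts.

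The start regions of Cox8a, the highest complex IV member, its undetected paralog Cox8b and Cox6a1 are printed to show how they differ in letters. Each is the 250 bases before the RefSeq start on GRCm38.p6, written 5′ to 3′ on the gene's strand, and capitals mark matches, on either strand, to the motifs listed after them.
Cox8a, chr19:7217617-7217866, minus strand: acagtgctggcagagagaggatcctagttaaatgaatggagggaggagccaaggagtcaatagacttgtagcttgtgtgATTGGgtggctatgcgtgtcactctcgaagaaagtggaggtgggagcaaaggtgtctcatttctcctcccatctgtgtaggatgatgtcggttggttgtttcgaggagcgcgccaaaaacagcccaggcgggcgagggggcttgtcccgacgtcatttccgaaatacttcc
Cox8b, chr7:140900447-140900696, minus strand: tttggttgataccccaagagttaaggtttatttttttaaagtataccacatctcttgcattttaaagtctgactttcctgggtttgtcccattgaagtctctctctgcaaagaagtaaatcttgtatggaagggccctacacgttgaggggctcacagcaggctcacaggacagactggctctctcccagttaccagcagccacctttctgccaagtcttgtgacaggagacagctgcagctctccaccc
Cox6a1, chr5:115348959-115349208, minus strand: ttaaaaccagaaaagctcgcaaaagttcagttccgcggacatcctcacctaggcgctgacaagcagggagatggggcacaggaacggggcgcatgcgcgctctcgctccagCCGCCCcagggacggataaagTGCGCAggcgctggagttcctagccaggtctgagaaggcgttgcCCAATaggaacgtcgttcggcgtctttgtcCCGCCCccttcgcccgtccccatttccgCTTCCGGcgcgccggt

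The motifs searched on both strands were TGCGCA, the core of the site of NRF1; CCGGAAG, an ETS site of the kind GABP binds; AAGATGG, of YY1; CCAAT, which NF-Y binds; the GC box GGGCGG; and the TATA box letters TATAAA. RefSeq windows of 300 bases, 250 before and 50 after each start, were matched for 65 of the 78 symbols, with 70 windows. TGCGCA was in 24.3% of the members' windows and 7.76% of all 32841 windows, CCGGAAG in 20% against 8.86%, and AAGATGG in 15.7% against 6.34%. CCAAT was in 41.4% against 37.4%, GGGCGG in 38.6% against 35.7%, and TATAAA in 11.4% against 13.6%. Median GC content was 57.2% in members and 52.7% in all windows. In the printed bases, Cox6a1 held the NRF1, ETS, CCAAT and GC box letters, Cox8a a CCAAT box alone and Cox8b none of the 6. The contrast was not general. The same stretch of the general form Cox7a2, not printed, held GC box letters alone, and that of the restricted form Cox7a1 CCAAT letters alone. In the whole windows, which add the 50 bases after the start, Cox8a also held the ETS letters and Cox8b the TATA box letters. A match describes letters and not binding.

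In complex V, the medians of the F1 part, which includes the catalytic head, and of the other membrane subunits were above those of the peripheral stalk and the c subunit. Not every gene followed its group. Atp5c1 and Atp5d of F1 had means of 36.6 and 33.0 TPM, Atp5j2 of the membrane subunits 36.1 TPM, and Atp5h of the peripheral stalk 69.2 TPM. The 5 genes of the F1 part had a median of 66.7 ± 2.17 TPM, the 4 peripheral stalk genes 38.2 ± 4.65 TPM, the 3 genes for the c subunit 35.2 ± 2.93 TPM, and the 4 other membrane subunits 66.5 ± 10.2 TPM (SD, n = 2). The c subunit median is the value of Atp5g2 here and of Atp5g1 in the second quantification. There it was 9.48 and 7.05 TPM, beside 31.5 and 24.6 TPM for F1. TPM of the members ran lower in that quantification, with a median over all members of 15.4 and 9.30 TPM in replicates 1 and 2. In the first quantification that median was 30.8 and 25.5 TPM. Atp5b, the catalytic beta subunit, was the highest of all 79 genes at 125.7 TPM in replicate 1 and 130.2 TPM in replicate 2. It took 4.73% of the members' summed TPM. In replicate 1 of the second quantification it was at 52.8 TPM, below Atp5l at 56.1 TPM. In replicate 2 of that quantification it was highest, at 40.5 TPM.

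Atp5a1, the alpha subunit that alternates with beta in the head, was at 65.2 TPM in replicate 1 and 69.5 TPM in replicate 2. Both head subunits were slightly higher in replicate 2. Atp5c1, the gamma shaft, was at 38.0 TPM in replicate 1 and 35.2 TPM in replicate 2, and Atp5d, the delta subunit, at 33.2 TPM in replicate 1 and 32.7 TPM in replicate 2.

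Atp5l, subunit g of the membrane part, was at 114.5 TPM in replicate 1 and 92.9 TPM in replicate 2. Atp5mpl, a small proteolipid of the membrane part, was at 84.3 TPM in replicate 1 and 67.3 TPM in replicate 2. Atp5e, the epsilon subunit, was at 83.1 TPM in replicate 1 and 68.3 TPM in replicate 2. These 3 short mRNAs were all higher in replicate 1. The remaining membrane subunits, Atp5k (subunit e) and Atp5j2 (subunit f), had means of 57.2 and 36.1 TPM.

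Of the peripheral stalk, which holds the head still, Atp5h was highest with a mean of 69.2 TPM, and Atp5j had one of 44.2 TPM. Atp5f1, subunit b, was at 34.3 TPM in replicate 1 and 30.3 TPM in replicate 2. Atp5o, the protein that ties the stalk to the head, was at 32.2 TPM in replicate 1 and 28.4 TPM in replicate 2, and by mean both were among the 3 lowest genes of complex V. Its other annotated copy, on the same strand of chromosome 16, had 0 counts in each library, and the copies share exons, so reads can be divided between them. Atp5s was at 1.16 TPM in replicate 1 and 1.23 TPM in replicate 2.

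The c subunit of the membrane ring is made from 3 genes that encode the same mature protein. Atp5g3 was highest at 48.6 TPM in replicate 1 and 45.8 TPM in replicate 2, and Atp5g1 was lowest at 18.6 TPM in replicate 1 and 18.6 TPM in replicate 2. Atp5g2 lay between them at 37.3 TPM in replicate 1 and 33.2 TPM in replicate 2. By this quantification they made up 46.7% ± 0.326, 18.4% ± 0.859 and 34.8% ± 1.19 (SD, n = 2) of their summed TPM.

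The place of Atp5g2 did not hold in the other quantification the authors deposited. That one, made directly from the reads, gave Atp5g2 6.05% of the summed TPM of the 3 genes, with 67.4% for Atp5g3 and 26.5% for Atp5g1. It assigned 325 and 181 counts to Atp5g2, where the first assigned 2207 and 1655. Gm10175 (chr7:23946646-23947290, minus strand, mm10), annotated as a transcribed processed pseudogene, had 500 and 383 counts in the first quantification and 2492 and 1963 in the second.

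Summed over Atp5g2 and Gm10175, the counts were 2707 and 2038 in the first and 2817 and 2144 in the second quantification. The sum therefore agreed within 1.25-fold in both libraries, whereas the share given to Atp5g2 went from 81.5% and 81.2% to 11.5% and 8.43%. The whole 645-base transcript of Gm10175 was identical to bases 83 to 727 of the 731-base leading transcript of Atp5g2, with 0 differing bases. Reads from this stretch cannot be assigned to either gene by sequence. The first 180 coding bases of Atp5g2 (chr15:102662864-102672352, minus strand), found letter for letter in the pseudogene, are printed with the start codon in capitals.
Atp5g2 and Gm10175: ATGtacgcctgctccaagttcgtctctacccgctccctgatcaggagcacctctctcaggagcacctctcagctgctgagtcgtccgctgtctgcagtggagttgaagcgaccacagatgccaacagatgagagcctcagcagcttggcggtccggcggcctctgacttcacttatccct

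Ndufb4, the lowest complex I gene, also had a copy identical over the whole length of that copy. The 390-base transcript of Ndufb4c (chr15:73809507-73809896, minus strand), annotated as a processed pseudogene, was identical to bases 95 to 484 of the leading transcript of Ndufb4 (chr16:37647170-37654453, minus strand). The authors' first quantification gave Ndufb4c 482 and 460 counts, near the 538 and 378 of Ndufb4, so the level of Ndufb4 includes a division of identical reads. The first 180 coding bases of Ndufb4, identical in the copy, are printed in the same way.
Ndufb4 and Ndufb4c: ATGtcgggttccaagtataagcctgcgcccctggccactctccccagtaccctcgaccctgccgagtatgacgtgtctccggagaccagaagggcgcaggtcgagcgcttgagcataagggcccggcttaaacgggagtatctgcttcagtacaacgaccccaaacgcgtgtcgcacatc

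Atp5g2 and Ndufb4 also had the largest posterior SDs, the deposited measure of how uncertainly reads were divided, at 3.23% and 3.97% of the count for Atp5g2 and 2.47% and 2.82% for Ndufb4. Ndufa12 was next, with 0.468% and 0.62%, then Ndufb6 with 0.487% and 0.449%, and Cox7c with 0.337% and 0.389%. In 5 members, the leading transcript contained a whole transcript of another gene. Of 6 such genes, 4 were above 3 counts in both libraries: Gm10175, Ndufb4c, Gm12338 within Cox7c, with 183 and 141 counts, and Gm10221 within Atp5l, with 9.61 and 13.2 counts.

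Beyond Atp5g2, the quantifications gave nearly the same levels. On the scale of nuclear-encoded protein-coding genes, 70 of the 73 members averaging at least 10 counts were within 1.25-fold. Over 1.5-fold apart were Atp5g2, at -3.07 on the log2 scale of second over first, and Cox6a2, at 0.874 on the 12 and 16 counts of the first. Cox7b was 1.35-fold higher in the second. By share of the members' TPM, Atp5g2 and then Atp5b differed most and were lower in the second quantification, followed by Cox7b, Cox5b and Ndufv2, which were higher.

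**Figure D3:**
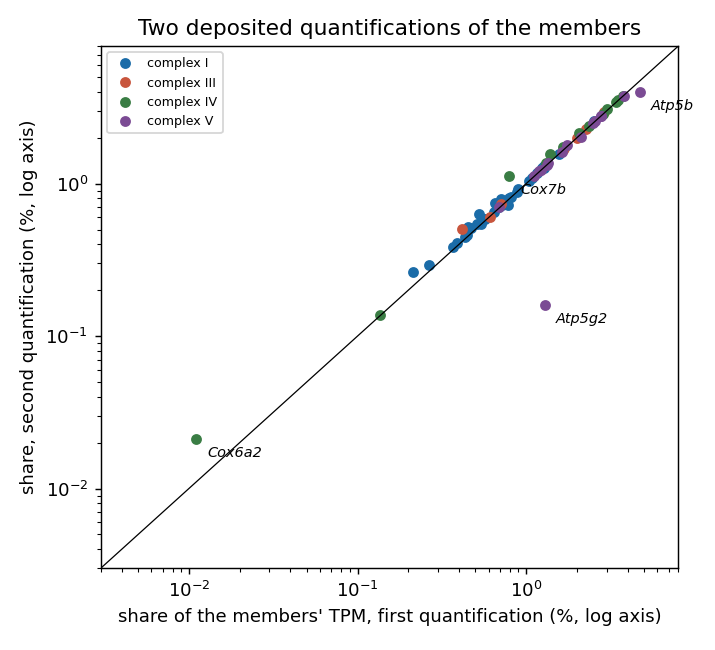
Share of the members' summed TPM (percent, log axes) of each gene averaging at least 10 counts, in the first (x) and the second (y) quantification, coloured by complex, with the line of equality. Most of the points lie close to the line, and Atp5g2 lies far below it; Atp5s is not drawn.

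Most reads of the genes came from transcripts annotated as protein-coding. Over the 73 genes averaging at least 10 counts, 94.4% of counts in replicate 1 and 94.7% in replicate 2 were given to protein-coding transcripts, and 44 genes had over 99%. A level here is the sum over all transcripts of a gene, and 12 genes had under 90% in coding ones. In Ndufa5, an accessory subunit of complex I, 72.6% of the counts went to noncoding transcripts, mostly a processed transcript with 57.5% and 63.7%.

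Atp5j, coupling factor 6, had 56.7% and 50.2% in retained-intron transcripts. Ndufs4, an accessory subunit, had 52.1% and 49.2%, and Atp5f1 48.1% and 47.0%, in transcripts marked for nonsense-mediated decay. Exons of 29 members overlapped another gene, 25 of them on the opposite strand. The strand used in counting is not given in the sources used here, so reads of such pairs cannot be told apart. The overlap was 30.0% of the exonic bases for Ndufa13 with Tssk6 and 39.0% for Ndufb6 with Smim27. For Atp5o with D430001F17Rik and Gm15976 it was 35.6%. Tssk6 was given 9.01 and 8.01 counts, and Smim27 145 and 96.6 counts.

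The 2 libraries gave the genes almost the same order but not the same level. Levels of these 73 members correlated across genes between the libraries with Pearson's r of 0.994 and Spearman's rho of 0.990 on the log2 scale. After TMM scaling, 65 of these 73 members were lower and 8 higher in replicate 2, against 53.4% lower and 46.6% higher among 11606 protein-coding genes. The median log2 ratio of replicate 2 to replicate 1 was -0.185 for members and -0.021 for those protein-coding genes. By complex it was -0.166 in I, -0.190 in III, -0.195 in IV and -0.223 in V. In bulk RNA such as this, fewer cells with an mRNA and less of it per cell cannot be told apart.

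No member with a mean count of 100 or more differed over 2-fold between libraries, by TMM and by DESeq2 scaling, where 1.6% of 10091 genes did, 0.287% lower and 1.31% higher in replicate 2. The members farthest below 0 were Cox7a1 at -0.592, with a 95% counting interval from -1.12 to -0.0885, and Cox7a2l at -0.552, from -0.605 to -0.498. Uqcrh was at -0.431, Cox7b at -0.424 and Ndufs5, an accessory subunit of complex I, at -0.406. Ndufs5 had 35.6 and 27.7 TPM in the respective libraries. These intervals cover counting error only.

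The highest ratios were those of Cox6a2, at 0.588 with an interval from -0.562 to 1.82, which includes 0, and of Uqcrc1, at 0.223 with one from 0.148 to 0.298. Atp5s followed at 0.216, Ndufs7 at 0.086 and Ndufs1 at 0.055. Uqcrc1 and Uqcrc2, which form the core of complex III together, were at 0.223 and -0.050. The core genes of complex I had a median of -0.0855 and its accessory genes one of -0.189.

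The genes are short, and the replicate ratio moved with length. Their median effective length was 435 bases, against 2341 bases for protein-coding genes at 1 TPM or more. In bins of effective length chosen after the values were seen, the 9 members under 250 bases had a median ratio of -0.253, the 33 of 250 to 500 bases -0.176, the 17 of 500 to 1000 bases -0.221, and the 14 of 1000 bases or more -0.039. All nuclear-encoded protein-coding genes in the same bins had medians of -0.157, -0.212, -0.133 and -0.0035. So the members' median was below that of all genes in 3 of these bins and above it in the bin of 250 to 500 bases, where 93.9% of members and 81.4% of all genes were lower in replicate 2.

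Across the 73 members the ratio had Pearson's r of 0.368 and Spearman's rho of 0.367 with effective length, and across 11606 protein-coding genes 0.130 and 0.188. These are descriptions across genes of the same 2 libraries, which share depth and preparation. Other RNAs were higher in replicate 2: all 3 nuclear RNAs, and 8 of the 10 macrophage markers, whose median log2 ratio was 0.346. The part of these RNAs and of gene length in the members' ratio was not tested. Shorter genes had higher levels in complex I, with r of -0.697 and rho of -0.717 over 35 genes, and in complex III, with -0.918 and -0.524 over 8 genes. In complex IV r was 0.063 and rho -0.379 over 13 genes, and in complex V -0.183 and -0.365 over 16 genes. TPM is itself a count divided by that length.

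**Figure D4:**
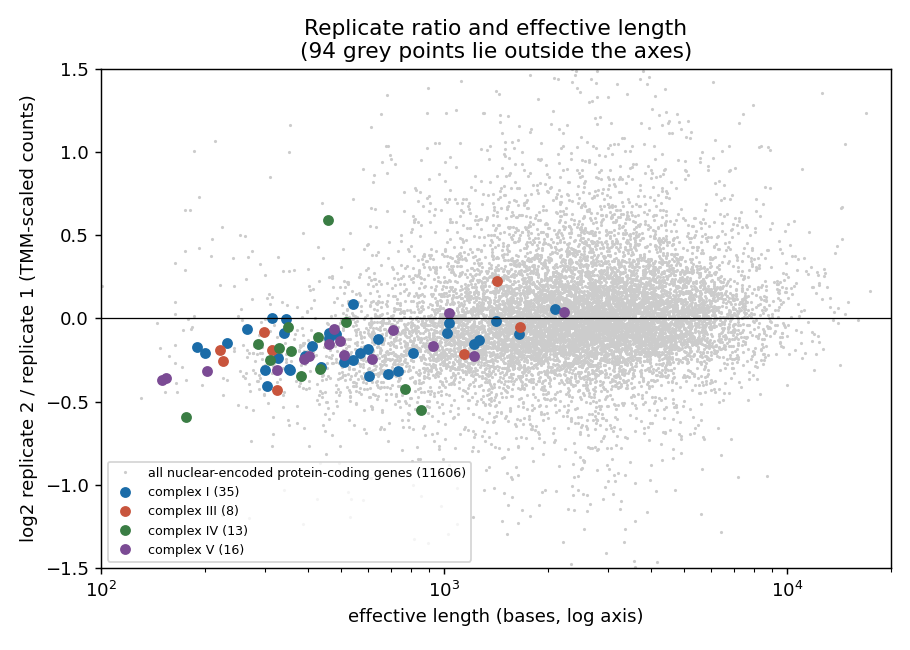
Log2 ratio of replicate 2 to replicate 1 after TMM scaling (y) against effective length in bases on a log axis (x), with the members coloured by complex over nuclear-encoded protein-coding genes in grey, 94 of whose 11606 lie outside the axes. Most members lie left of 1000 bases and below 0, and the 14 at 1000 bases or more, counting Atp5s, which is not drawn, have a median of -0.039.

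The subunits encoded by mitochondrial DNA went the other way between the libraries. All 13 were higher in replicate 2, with a median log2 ratio of 0.970 and a range from 0.19 for mt-Nd3 to 1.43 for mt-Co2. In complex I the median of the 7 mitochondrial genes was 185 and 317 TPM in replicates 1 and 2, and that of the 35 nuclear genes 19.0 and 18.1 TPM. In complex IV the medians were 71.6 and 145 TPM for 3 mitochondrial genes and 39.8 and 33.6 TPM for 18 nuclear ones. The log2 gap between the genomes therefore went from 3.29 to 4.13 in complex I and from 0.848 to 2.11 in complex IV. The gap in complex IV was larger in the second quantification. There its medians were 88.7 and 124 TPM for the mitochondrial genes and 21.2 and 13.6 TPM for the nuclear ones. Those of complex I were 92.5 and 138 TPM and 9.64 and 7.18 TPM, a gap near that of the first.

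For complex III, mt-Cytb, cytochrome b, was at 235 and 468 TPM. For complex V, mt-Atp6 was at 28.2 and 77.5 TPM and mt-Atp8 at 1219 and 2618 TPM. The effective length of mt-Atp8 was only 22.7 bases, and its gap to mt-Atp6 was far smaller in the second quantification. Both genes moved: there mt-Atp8 was lower, at 296 and 454 TPM, and mt-Atp6 was higher, at 219 and 325 TPM. The reason was not tested. The nuclear genes of both complexes had a lower median in replicate 2. How much of the organelle the cytosolic fraction holds was not measured, so these levels cannot be read as a ratio of the genomes in the cell.

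**Figure D5:**
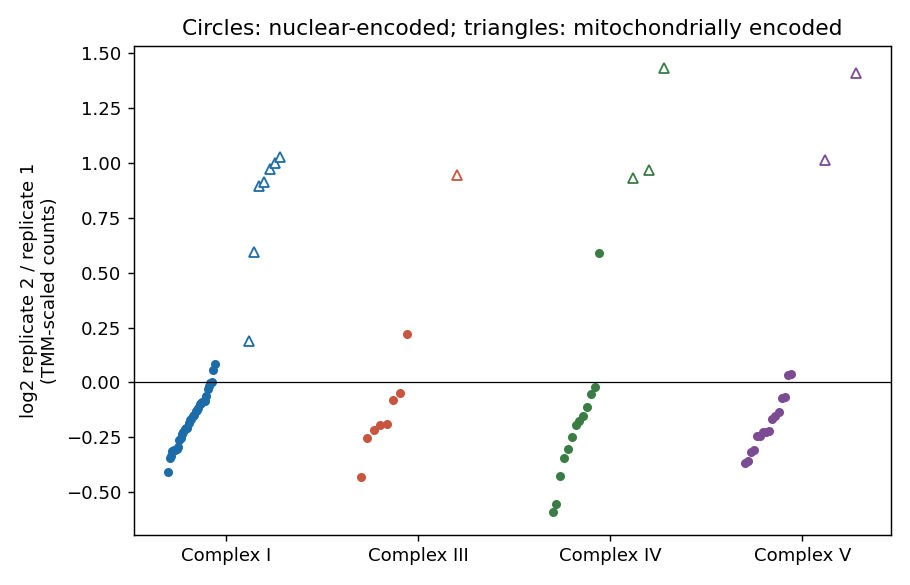
Log2 ratio of replicate 2 to replicate 1 after TMM scaling for each nuclear-encoded member averaging at least 10 counts (circles) and each mitochondrially encoded subunit (triangles), by complex. All 13 triangles lie above 0 and 65 circles lie below it; Atp5s, at 0.216, is in no complex and is not drawn.

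Genes that work with the members gave the setting. Of complex II and the electron carriers, 6 of 6 were at 1 TPM or more: Sdha, the flavoprotein of complex II, was at 29.7 and 28.9 TPM, Cycs, cytochrome c, at 4.88 and 5.21 TPM, and Cyc1, cytochrome c1 of complex III, at 8.14 and 9.01 TPM. Of 6 nuclear-encoded genes of the chain that the symbol rule misses, Cyc1 among them, 5 were at 1 TPM or more. Cox4i1, the general form of subunit 4 of complex IV, was above every member at 185 and 167 TPM, whereas Cox4i2, its lung form, was at 0 and 0.04 TPM. Usmg5, a membrane subunit of complex V, was at 123 and 111 TPM, and Atpif1, the inhibitor of its reverse action, at 122 and 105 TPM.

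Assembly factors, which build the complexes but are not part of them, had lower medians than the subunits. At 1 TPM or more were 12 of 14 for complex I, with a median of 2.02 TPM, 5 of 6 for complex III, with 3.26 TPM, 16 of 19 for complex IV, with 3.21 TPM, and 4 of 4 for complex V, with 2.54 TPM. Cox17, the copper chaperone of complex IV, stood above the other assembly factors at 59.6 and 47.5 TPM. Uqcc2, of complex III, was at 13.7 and 11.9 TPM.

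Of 9 regulators of mitochondrial biogenesis, 7 were at 1 TPM or more. Ppargc1a, the coactivator PGC-1 alpha, was at 0.02 and 0.01 TPM, and Ppargc1b was at 0.26 and 0.32 TPM. Nrf1 was at 2.50 and 2.99 TPM, Gabpa at 7.71 and 7.28 TPM and Yy1 at 5.38 and 5.09 TPM, the genes of the factors whose motif letters were counted in the promoters. Among 6 uncoupling and nucleotide exchange genes, all at 1 TPM or more, Ucp2, an inner membrane carrier, was at 163 and 164 TPM. Slc25a5, an ADP/ATP carrier, was at 80.5 and 79.5 TPM, while Atp5b, the highest member in the first quantification, was at 125.7 and 130.2 TPM.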

How the data were processed

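Ribosomal RNA-depleted total RNA from macrophage cytosol was measured in 2 libraries of 1 group, each quantified separately, so no groups were compared and no test was run. Expected counts and TPM per gene and transcript, with a posterior SD and effective length, were deposited by the authors, derived from transcriptome alignments per the deposited readme files. The second quantification, estimated counts and TPM per transcript, was deposited as made directly from the reads. Both used mm10 and annotation M21; the sources used here name no aligner, quantifier, version or strand.

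Symbols and coordinates came from GENCODE M21 on mm10, promoters from RefSeq on GRCm38.p6. Members and gene lists were chosen with earlier results of these data known, and any member could be named; 1 member is counted but not reported here. Levels are TPM, with 0.1 added before log2. Second-quantification values were summed by gene. Ratios used rounded expected counts, edgeR 4.0.16 TMM scaling (R 4.3.3) and 0.5 added, for genes averaging at least 10 counts, or 100 for those over 2-fold. The ratio step was tested on simulated data. Counting intervals are 95% exact binomial. Shared sequence was sought as 31-base words and whole transcripts. Alternatives were DESeq2 1.42.0 scaling, library totals, other thresholds and pseudocounts, the second quantification and leaving out each library.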

Additional observations from a re-analysis of the deposited data

Results flagged for a closer look

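Of 12 genes whose symbols match the rule but that have no protein-coding transcript, and so are no members, 2 were above 3 counts in both libraries. Ndufb1-ps (chr12:101968090-101977068, minus strand, mm10), annotated as a noncoding RNA from a bidirectional promoter, had 2606 counts in replicate 1 and 2026 in replicate 2, a mean of 42.4 ± 3.90 TPM (SD, n = 2), above the median complex I member. Ndufb4c, the processed pseudogene contained in Ndufb4, had 482 and 460 counts, a mean of 25.7 ± 2.19 TPM (SD, n = 2). Both lie outside the comparisons of the report, and no sample serves as a control for them. The other 10 were at or below 3 counts in each library.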

How the results depend on the processing

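Settings not named here moved values by less than the spread between libraries or, for numbers of genes, by less than 1.5-fold. Leaving out 1 of 2 libraries cannot move a difference by more than that spread, and complexes III and V have no gene below 1 TPM to leave out, so those settings say nothing of stability. Complex III minus complex I, 1.29 as reported, was 1.22 in the second quantification and 0.825 with the mean of log2 levels. Complex IV minus complex I, 0.975 as reported, was 1.68 over members at 1 TPM or more and reversed to -1.57 with the mean of log2 levels. That mean takes in 4 genes at 0 counts in both libraries and Cox6b2, at 0 counts in replicate 1 and 1 in replicate 2. Leaving out each library gave 1.25 to 1.32 for complex III, 0.889 to 1.06 for complex IV and 1.23 to 1.35 for complex V, and 72 members at 1 TPM or more each time. The median replicate ratio of members, -0.185 as reported, was -0.231 with library totals, -0.261 in the second quantification, -0.173 from TPM over nuclear-encoded protein-coding genes, and, added after seeing the data, -0.039 over members of 1000 bases or more; in each of these settings the members stayed below the median of all genes compared. Apart from the length restriction, which keeps 14 genes, and the means, the cause of these shifts was not tested. No paired analysis was possible because there is 1 group only. Depth limits the restricted isoforms of complex IV, where 1 count decides between 0 and a level.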
